A study of Homo sapiens with 3 samples.

Results

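The response of LNCaP cells to 10 nM bufalin after 24 h was examined against the vehicle, ethanol, over the probes detected on at least 1 of these 2 arrays at a detection p-value below 0.01. Of 47323 probes, 15756 met this rule, and they covered 8233 named genes. LNCaP, an established line of human prostate cancer, was grown here in RPMI-1640 medium with fetal bovine serum, and the vehicle culture shared these conditions and the 24 h of exposure. The series holds 3 Illumina bead arrays, 1 each for vehicle, 10 nM and 20 nM, and the study asked how transcript levels vary with bufalin concentration. Signals at 20 nM are printed beside the others for reference, and both doses share the vehicle array.

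Bufalin is a cardiac glycoside-type steroid of toad venom that inhibits the sodium pump, the Na,K-ATPase that exports sodium and imports potassium across the plasma membrane. Inhibition of the pump raises sodium in the cell and lowers potassium, and cells are known to answer such shifts with signalling through calcium and MAP kinases, with osmotic adjustment and with altered protein synthesis. LNCaP cells keep luminal prostate features and depend on the androgen receptor.

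Each treatment had 1 array, so no difference below has a replicate check, no test was made, and precision is limited by how few arrays there are. Counts use the measured values, including those of genes detected on 1 array. Signals are the deposited intensities, which hold their background. Log2 fold changes compare the 10 nM array with the vehicle array after background correction with an offset of 16 and quantile normalization, and they understate differences of dim genes. A 2-fold difference, a log2 fold change of 1, served as a threshold of size. Where a gene was detected on only 1 of the 2 arrays, its fold is a bound written as at least N-fold. Detected at 10 nM only, or with vehicle only, refers to these 2 arrays and says nothing of the 20 nM array. Over 1797 genes with several detected probes, the standard deviation between probes of a gene was 0.31 on the log2 fold scale, a spread of probes and not of cultures. Names were at hand only for probes that differed from vehicle by 10% or more in intensity at 10 or 20 nM, so genes that differed little are largely absent from the named set. In cultures measured in bulk, fewer cells of a kind and less RNA per cell cannot be told apart.

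Luminal marker genes were detected on both arrays. FOXA1, a pioneer factor of luminal prostate cells, had a signal of 6205 with vehicle and 5859 at 10 nM, and EPCAM, an epithelial adhesion gene, had 2719.6 and 3135. Of 23 luminal markers, 18 were detected under a name, with a median log2 fold change of 0.21. Of these 18, 3 (16.7%) were at least 2-fold higher and 1 (5.56%) lower, beside 6.41% and 3.24% over all named genes. The higher ones were PDLIM5, CLDN4 and KRT8, and the lower one was KRT18. None of the 9 basal epithelial markers was among the named genes, which says nothing about their signal. Of the markers of other cell types, the named and detected ones were 3 stromal, 2 leukocyte, 1 neuroendocrine and 1 endothelial gene. Among these, HLA-DRA, a class II antigen presentation gene, was the only one at least 2-fold higher, with signals of 278 with vehicle, 498 at 10 nM and 678 at 20 nM. The 3 stromal genes had a summed signal of 1831 with vehicle and 2734 at 10 nM, and the part of such genes in the results was not tested.

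Most transcripts lay close to vehicle at 10 nM. The middle 50% of the 15756 probes lay between a log2 fold change of -0.38 and 0.33, and 64.5% of probes were within 0.5 of 0. At least 2-fold higher were 784 probes (4.98%), and at least 2-fold lower were 436 (2.77%). Past 4-fold the sides were far apart, with 98 probes higher and 3 lower. Among the 8233 named genes, 528 (6.41%) were at least 2-fold higher and 267 (3.24%) at least 2-fold lower, with a median log2 fold change of -0.04. The higher side held 66.4% of these genes. It held 81.9% without background correction, 76.9% with an offset of 50 and 87.0% in the unnormalized deposited intensities, so the balance of the sides depended on how background was treated.

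Detection split the probes unevenly. Of the 13643 probes detected on both arrays, 569 were at least 2-fold higher and 325 at least 2-fold lower. A further 1092 probes were detected at 10 nM only, of which 215 were at least 2-fold higher by value and 82 at their bound. With vehicle only, 1021 probes were detected, of which 111 were at least 2-fold lower by value and 25 at their bound. The direction of these probes follows from where they were detected, and most were within 2-fold. The 5407 detected probes without a gene name had nearly even sides, with 110 higher (2.03%) and 115 lower (2.13%), and 77.9% of them were within 0.5 of 0. The named and unnamed sets differ by the filter on which the names rest, so these shares describe the sets and not kinds of transcript. The unnamed probe farthest above vehicle, ILMN_1770085, had signals of 185 with vehicle, 793 at 10 nM and 1003 at 20 nM, and the one farthest below, ILMN_3214893, had 489.8, 173 and 119.

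The sides also differed along the range of signals. When the probes detected on both arrays were divided into 5 bins of equal size by their geometric mean signal, the share at least 2-fold higher was 1.83% in the dimmest bin, 5.94% in the middle one and 3.19% in the brightest. The share at least 2-fold lower was 1.61% in the dimmest bin and 0.623% in the brightest, whose signals began at 1046. Transcripts with a bright signal that were lower by 2-fold were therefore few. The log2 fold changes had a standard deviation of 0.45 at both ends of the range and of 0.62 in the middle bin.

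Among genes detected on both arrays, CCN1, which encodes a matricellular protein, was farthest above vehicle. Its signal was 188 with vehicle, 1993 at 10 nM and 4742 at 20 nM, a log2 fold change of 4.39 at 10 nM. ELF3, an epithelial ETS factor gene, had 246, 1518 and 2061 on the same arrays. ENC1, an actin-binding protein gene, had 205, 1057 and 1027. CCN1 and ELF3 were higher again at 20 nM, while ENC1 had nearly equal signals at both doses. GADD45A, a growth arrest gene, had 308, 1968 and 3731, and HBEGF, an EGF receptor ligand gene, had 147, 499 and 596. The probes of the keratin gene KRT80 disagreed in size, from a log2 fold change of 1.14 to 3.29. The stress genes CDKN1A and GDF15 reached signals of 85.4% and 79.1% of the highest on the 10 nM array, near the upper end of the range. The fold of GDF15, 9.58-fold, may therefore be larger. No single fold is given for CDKN1A, whose probes also disagreed, with log2 fold changes from 1.29 to 2.90.

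Genes ranked 11 to 25 on the higher side had varied roles. BCL6, a transcriptional repressor, had a signal of 845 with vehicle, 5089 at 10 nM and 6281 at 20 nM. TXNIP, an arrestin-like inhibitor of thioredoxin and of glucose uptake, stood at 1399, 7993 and 7679.6. SLC38A2, a sodium-coupled transporter of neutral amino acids, stood at 1229, 6444 and 8091. All 3 signals at 10 nM lay far nearer to the 20 nM array than to the vehicle array. ZFP36, whose product binds AU-rich elements and destabilizes messenger RNA, had 268, 1035 and 945. BCL3, a nuclear partner of NF-kappa-B, had 186, 697 and 534, and CCL2, a monocyte chemokine, had 218, 889.8 and 563. For ZFP36, BCL3 and CCL2 the signal was higher at 10 nM than at 20 nM. The stress factor ATF3 had a log2 fold change of 2.94, the TWEAK receptor gene TNFRSF12A 2.90, the death gene PMAIP1 2.56 and IER5 2.53. The log2 fold changes of ITPRIP, an inositol trisphosphate receptor partner, and SDC4, a heparan sulphate proteoglycan, were 2.86 and 2.77, and that of ZSWIM4 was 2.64.

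Of the named genes, 411 were detected at 10 nM and not with vehicle. The growth arrest gene GADD45B, with signals of 137 with vehicle, 989 at 10 nM and 1866 at 20 nM, was at least 21.6-fold higher. CCN2, the connective tissue growth factor gene, had 139, 887 and 3337 and was at least 19.1-fold higher by its brightest probe. The probes of CCN2 spanned log2 fold changes from 3.26 to 4.27. Next in size were the bounds of TCIM, CREBRF and EDN1, which encodes endothelin, with at least 13.9-fold, 9.83-fold and 9.70-fold. PLA2G2A, a secreted phospholipase, had signals of 133, 362 and 141, and was at least 6.31-fold higher at 10 nM. Its 20 nM signal was back near the vehicle level, unlike those of GADD45B and CCN2. PIM1, a serine/threonine kinase gene, was at least 4.58-fold higher, and TICAM2, an adaptor of Toll-like receptor signalling, at least 4.56-fold higher.

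On the lower side the distances were shorter. Past 4-fold stood 74 named genes above vehicle and 1, MIX23, below it, with signals of 1232, 317 and 214 with vehicle, 10 nM and 20 nM. The next genes in rank were MSTO1 (-1.73), TGDS (-1.65), CDCA7 (-1.61), GPRIN2 (-1.61), EAF2 (-1.59), TIGD5 (-1.55), TPCN2 (-1.54) and TMEM177 (-1.53), as log2 fold changes. WDR4 and METTL1 encode the subunits of the enzyme that methylates guanosine in transfer RNA. WDR4 had a signal of 623 with vehicle, 289 at 10 nM and 188 at 20 nM, a log2 fold change of -1.50, and METTL1 had 891, 412 and 191, a log2 fold change of -1.38. Both subunits were thus lower at 10 nM by similar amounts. EIF5, a translation initiation factor that triggers GTP hydrolysis by eIF2, had 785, 361 and 351, and EEF2K, the kinase of elongation factor 2, had 392, 207 and 137. PRMT6, an arginine methyltransferase, had 1561, 651 and 247. Further genes ranked 11 to 25 included the ubiquitin ligase adaptor FBXO4 (-1.53, with its other probe at -0.41), the peroxisomal oxidase ACOX2 (-1.52), MNS1 (-1.50, with its other probe at -0.94), KBTBD11 (-1.50), TTC5 (-1.48), the primase gene PRIM1 (-1.48), the small RNA methyltransferase HENMT1 (-1.48), ZNF239 (-1.47), AP4B1 (-1.47), ADAP2 (-1.41) and the divergent transcript FLVCR1-DT (-1.40), all as log2 fold changes. A probe of the ribosomal RNA gene RNA28SN5 had 494 with vehicle, 228 at 10 nM and 3948 at 20 nM, lower at one dose and far higher at the other, while its other probe stood at 0.05 on the log2 fold scale at 10 nM. The many copies of this gene make its probes uncertain. Of the genes detected with vehicle only, THEM4 was at least 2.59-fold lower, POP1 at least 2.55-fold, ARPIN at least 2.53-fold, LRRC45 at least 2.47-fold and EME1 at least 2.43-fold. After these, TLE6 was at least 2.32-fold lower, C15orf40 at least 2.28-fold and CDC42EP2 at least 2.21-fold.

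Promoters of some leading genes are shown to place their sequence beside the values, and each one printed holds a searched motif. Most leading genes detected on both arrays held none of the motifs, among them TSC22D3, ATF3 and CDKN1A on the higher side and MIX23 and CDCA7 on the lower. RefSeq windows (GRCh38.p14) of 300 bases, from 250 before to 50 after the gene start, were searched on both strands for the cyclic AMP response element TGACGTCA, the AP-1 site TGANTCA, the CArG box, the TATA box TATAAA, the E-box CACGTG, the ETS site CCGGAAGT, the NRF1 site and the E2F site TTTNGCGC. Matches of the last pair may overlap, and a match is a description and not a bound site. The cyclic AMP response element was in 1.98% of all 27305 promoters, in 3.51% of 6786 promoters of named detected genes, in 5.46% of 421 promoters of genes at least 2-fold higher and in 1.40% of 215 promoters of genes at least 2-fold lower. The corresponding shares were 11.95%, 5.56%, 9.98% and 4.65% for the TATA box and 7.76%, 3.98%, 6.89% and 2.33% for the AP-1 site. For the NRF1 site they were 6.28%, 13.2%, 9.26% and 15.8%, and for the ETS site 4.44%, 9.71%, 4.99% and 11.6%. The E-box had 7.43%, 11.3%, 11.2% and 13.0%, the E2F site 1.83%, 3.46%, 2.61% and 3.26%, and the CArG box 1.29%, 1.05% and 1.43%, with 0 of the 215 lower genes.

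For 18 leading higher genes detected on both arrays, a promoter was at hand. The cyclic AMP response element was found in 3, PPP1R15A, DUSP1 and IFRD1, and the TATA box in 4, ELF3, GDF15, PPP1R15A and DUSP1. The NRF1 site was found in 3 of 21 leading lower genes detected on both arrays, TGDS, TPCN2 and PRIM1. The 250 bases before the start are printed 5′ to 3′ on the strand of the gene, with matched motifs in capitals. DUSP1 encodes a MAP kinase phosphatase, PPP1R15A a phosphatase subunit of the stress response and IFRD1 a transcriptional co-regulator. GADD45B, detected at 10 nM but not with vehicle, encodes a stress sensor, and GDF15 a stress cytokine. Their windows are chr5:172771196-172771445 for DUSP1 (minus strand), chr19:48872171-48872420 for PPP1R15A (plus strand), chr7:112450258-112450507 for IFRD1 (plus strand), chr19:2475877-2476126 for GADD45B (plus strand) and chr19:18385908-18386157 for GDF15 (plus strand).
DUSP1: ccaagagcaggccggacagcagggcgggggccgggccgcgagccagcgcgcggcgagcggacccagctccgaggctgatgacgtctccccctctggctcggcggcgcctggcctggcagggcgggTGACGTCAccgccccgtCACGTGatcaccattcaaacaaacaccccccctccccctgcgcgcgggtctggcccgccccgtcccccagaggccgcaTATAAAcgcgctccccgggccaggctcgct
PPP1R15A: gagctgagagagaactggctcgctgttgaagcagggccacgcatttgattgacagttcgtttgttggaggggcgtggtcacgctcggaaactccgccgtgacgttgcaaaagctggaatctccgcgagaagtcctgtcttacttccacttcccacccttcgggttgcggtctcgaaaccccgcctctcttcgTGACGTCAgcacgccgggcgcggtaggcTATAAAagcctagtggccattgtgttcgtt
IFRD1: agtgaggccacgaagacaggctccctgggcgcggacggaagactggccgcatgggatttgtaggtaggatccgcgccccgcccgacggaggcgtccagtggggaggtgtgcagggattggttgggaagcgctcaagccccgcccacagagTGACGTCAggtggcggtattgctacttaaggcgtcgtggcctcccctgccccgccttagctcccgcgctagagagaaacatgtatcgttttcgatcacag
GADD45B: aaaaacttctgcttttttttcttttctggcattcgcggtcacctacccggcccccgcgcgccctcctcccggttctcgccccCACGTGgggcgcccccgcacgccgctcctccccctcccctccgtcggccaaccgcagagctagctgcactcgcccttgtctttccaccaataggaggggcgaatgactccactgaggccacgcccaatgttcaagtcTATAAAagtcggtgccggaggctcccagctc
GDF15: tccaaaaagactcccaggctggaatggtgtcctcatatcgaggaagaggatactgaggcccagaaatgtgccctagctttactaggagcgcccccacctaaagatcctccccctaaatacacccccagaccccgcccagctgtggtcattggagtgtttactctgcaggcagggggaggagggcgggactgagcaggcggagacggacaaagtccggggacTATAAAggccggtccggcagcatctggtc

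In DUSP1 the cyclic AMP response element begins at -125 from the gene start, the E-box at -108 and the TATA box at -30. In PPP1R15A the first of these begins at -58 and the TATA box at -30, and in IFRD1 the response element begins at -100. GADD45B has an E-box at -168 and a TATA box at -31, and GDF15 a TATA box at -29. IFRD1 had signals of 284 with vehicle, 1153 at 10 nM and 1626 at 20 nM, DUSP1 had 529, 3983 and 5906, and PPP1R15A had 150.0, 569 and 1506. All 3 of these leading genes had a higher signal at 20 nM than at 10 nM. Of the leading lower genes detected on both arrays, TGDS, TPCN2 and PRIM1 hold an NRF1 site. The window of TGDS is chr13:94596153-94596402 (minus strand). That of TPCN2, which encodes a lysosomal channel, is chr11:69048682-69048931 (plus strand). For PRIM1, which encodes the small primase subunit, it is chr12:56752324-56752573 (minus strand).
TGDS: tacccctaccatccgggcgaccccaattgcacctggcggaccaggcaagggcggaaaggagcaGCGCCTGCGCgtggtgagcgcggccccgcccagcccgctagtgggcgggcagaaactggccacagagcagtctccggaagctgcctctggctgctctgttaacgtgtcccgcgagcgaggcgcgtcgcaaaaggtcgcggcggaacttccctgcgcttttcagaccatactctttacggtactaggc
TPCN2: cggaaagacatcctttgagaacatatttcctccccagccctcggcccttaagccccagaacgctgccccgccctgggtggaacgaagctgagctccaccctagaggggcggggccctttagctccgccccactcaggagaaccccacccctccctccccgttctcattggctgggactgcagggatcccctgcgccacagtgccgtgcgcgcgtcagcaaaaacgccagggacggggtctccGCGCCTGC
PRIM1: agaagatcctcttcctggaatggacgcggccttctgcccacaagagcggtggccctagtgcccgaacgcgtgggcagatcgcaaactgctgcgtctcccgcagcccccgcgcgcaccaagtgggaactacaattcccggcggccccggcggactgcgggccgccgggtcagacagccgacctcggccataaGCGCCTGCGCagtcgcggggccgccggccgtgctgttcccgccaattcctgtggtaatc

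The site begins at -187 in TGDS, at -8 in TPCN2, where its last 2 bases lie past the printed stretch, and at -59 in PRIM1. TPCN2 had signals of 229 with vehicle, 142 at 10 nM and 119 at 20 nM, and TGDS had 372, 187 and 258. TPCN2 was lowest at 20 nM, while TGDS was lowest at 10 nM.

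The annotated families were described with 69 gene lists, of which 68 had a detected member, and some genes stand in several lists. Values in brackets are log2 fold changes at 10 nM, or signals in the order vehicle, 10 nM and 20 nM where 3 are given. Each count below is of detected members, to be read beside 6.41% higher, 3.24% lower and a median of -0.04 over all named genes. In the list of the sodium pump and osmotic adjustment, which also holds regulators and carriers, 1 of 3 pump subunits or regulators, ATP1B1, was past 2-fold. Only 8 of the 19 genes in the list were named. No catalytic alpha subunit was among the named and detected members, so the signal of those subunits is not described here. Of all 7 detected members, 5 were at least 2-fold higher, 0 lower, and the list median was 1.44, or 1.19 with genes at their bound and 0.997 without background correction. ATP1B1, the beta subunit that carries the sodium pump to the membrane, had signals of 2422 with vehicle, 6734 at 10 nM and 7160.1 at 20 nM, but its probes disagreed, with log2 fold changes from 0.56 to 1.51. NFAT5, the transcription factor of the osmotic response, had 193, 389.6 and 668, and SGK1, a kinase that promotes sodium transport, had 209, 598 and 498. ATP1B1, NFAT5 and SGK1 were thus above vehicle at both doses. SLC5A3, the sodium-coupled myo-inositol transporter, was at least 2.02-fold higher. SLC6A12, the betaine transporter, was at least 2.11-fold higher, but it stands in the list of amino acid carriers and not in this one. SLC5A6, the multivitamin transporter, had 709, 1518 and 1077. ATP1B3, another beta subunit, and FXYD5, a pump regulator, had log2 fold changes of 0.46 and -0.42.

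Other transporter lists held both higher and lower members. Of 22 amino acid carriers, 4 were at least 2-fold higher, 1 lower, 17 lay above 0, and the list median was 0.36, or 0.17 without background correction. SLC3A2, the heavy chain of heteromeric amino acid transporters, had 768 with vehicle, 2180.5 at 10 nM and 2152 at 20 nM, while SLC43A2, a neutral amino acid carrier, had a log2 fold change of -1.22. Among 25 mitochondrial carriers 1 was higher and 1 lower: SLC25A25, a calcium-regulated ATP-magnesium/phosphate carrier, had 815, 3002 and 3997, and SLC25A10, the dicarboxylate carrier, had 1946, 1012 and 564. The first was above vehicle and the other below it at both doses, and the list median was 0.03. SLC2A12, a glucose transporter, had 278, 749 and 769, one of 3 higher members among 34 carriers of sugars and other solutes. SLC20A2, a sodium-phosphate cotransporter, was the only one of 15 inorganic ion carriers past 2-fold (1.70), and SLC31A2, a copper carrier, the only one of 15 metal carriers (1.06). Among 18 calcium and potassium channel or handling genes, RCAN1, a calcineurin inhibitor, was higher (1.42), and STIM2, a sensor of stored calcium, was lower (-1.14) like TPCN2, with a list median of 0.03.

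Immediate early genes and genes of MAP kinase feedback were described separately. Immediate early genes stood 15 of 21 at least 2-fold above vehicle and 0 at least 2-fold below. Their median log2 fold change was 1.29, or 0.83 without background correction. The 3 members below 0 were MYC (-0.68), ZFP36L2 (-0.06) and EGR1 (-0.03). DUSP5, a nuclear ERK phosphatase, had signals of 191, 593 and 1019 with vehicle, 10 nM and 20 nM, and DUSP8, a phosphatase of JNK and p38, had a log2 fold change of 2.05. ERRFI1, an inhibitor of the EGF receptor, had 619, 2413 and 4466. Of 13 feedback genes 4 were higher and 0 lower, and SPRED1 and DUSP2 were below vehicle by less than 2-fold (-0.89 and -0.84), so the family was not uniform. Of 8 EGF receptor family ligands and receptors, 3 were higher: the ligands HBEGF (3.03) and TGFA (at least 1.87-fold) and the receptor EGFR (1.10). Of 40 MAP kinase cascade genes, 6 were higher, among them MAP3K8 (at least 2.70-fold), the NF-kappa-B inducing kinase MAP3K14 (1.24) and the small GTPase RRAS (1.27).

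Targets of the mechanosensitive YAP and SRF pathways had 7 of 21 members at least 2-fold higher, 0 lower, and the list median was 0.64. Beside CCN1 and CCN2 these included ANKRD1 (at least 3.26-fold), the YAP antagonists VGLL4 (1.43) and LATS2 (at least 1.71-fold), the factor SRF itself (1.34) and the focal adhesion gene ZYX (1.20). Vasoactive and injury genes had 9 of 16 members higher and a median of 1.14, but 7 were detected on 1 array, and the median was 0.88 at bounds and 0.50 without background correction. ADM, which encodes the vasodilator adrenomedullin, had 212 with vehicle, 663 at 10 nM and 1306 at 20 nM, and EDN2, an endothelin gene, was at least 3.98-fold higher. ITGA5, the fibronectin receptor alpha subunit, was detected at 10 nM only, at 187 against 130.2 with vehicle and 118 at 20 nM. CD59, a complement inhibitor, lay on the other side at -0.79.

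NF-kappa-B genes and chemokines had 10 of 21 members higher, 0 lower, and the list median was 0.95, or 0.77 at bounds and 0.58 without background correction. IRF1, an interferon regulatory factor, had a log2 fold change of 2.24, the inhibitor gene NFKBIA 1.56 and NFKBIZ 1.08. Detected at 10 nM but not with vehicle were TNF (at least 2.85-fold), the deubiquitinase gene TNFAIP3 (at least 2.37-fold) and REL (at least 1.44-fold). Activators and inhibitors of the pathway were thus both on the higher side. The interferon-induced list had 1 of 16 members higher and a median of 0.27. In the TGF-beta and BMP list 2 of 11 were higher, ID3, an inhibitor of bHLH factors (837, 2713 and 2041), and BAMBI, a decoy receptor (2443, 6433 and 7572), while PMEPA1 had -0.91. In the Notch list 4 of 11 were higher, the ligand JAG1 (1.48), the target HES1 (1.37) and the receptors NOTCH1 (1.12) and NOTCH3 (1.07), yet the median was 0.03. Over the Notch genes detected on both arrays the median was 0.80. The Wnt list had 2 of 12 higher, the receptors FZD7 (at least 1.68-fold) and FZD5 (1.06).

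Circadian clock genes were among the families with the highest medians. Of 12 detected members, 6 were at least 2-fold higher, 0 lower, and the list median was 1.10, which was 0.60 without background correction. BHLHE40, a repressor of the clock loop, had signals of 261 with vehicle, 602 at 10 nM and 1179 at 20 nM. CRY1, a core repressor, had 365, 805 and 1599.7, and PER2, its partner, had 374, 765 and 1000.2. For these 3 repressor genes the signals stood in the order of the dose. CRY2 and NFIL3, an output repressor, had log2 fold changes of 1.28 and 1.20, and the output activator TEF was at least 2.86-fold higher. The activator BMAL1 had 0.91, and the kinase CSNK1E -0.32.

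Genes known to respond to glucocorticoids had 8 of 14 members higher, 0 lower, and the list median was 1.08. TSC22D3, the glucocorticoid-induced leucine zipper gene, had 417, 3164 and 3321, and CEBPD, a C/EBP factor, had 656, 1857 and 1971. FKBP5, a receptor co-chaperone that both glucocorticoids and androgens induce, differed from them with 1505, 876 and 498, a log2 fold change of -0.91. SLC19A2, a thiamine transporter, and ZBTB16, a zinc finger factor, had 1.16 and 1.01.

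Androgen-regulated genes did not share a direction. Of 29 detected members, 3 were at least 2-fold higher and 3 lower, 20 lay below 0, and the median was -0.24. TMPRSS2, a membrane serine protease gene, had signals of 1492 with vehicle, 3668 at 10 nM and 5800.1 at 20 nM. KLK2, a kallikrein, had 294, 176 and 136, and KLK3, which encodes prostate-specific antigen, had 252, 238 and 187. TMPRSS2 was thus higher and KLK2 lower, and KLK3 lay within 2-fold of vehicle at 10 nM. KLK4 had 1735, 2426 and 844, above vehicle at 10 nM and below it at 20 nM. EAF2, an elongation factor partner, and CREB3L4, a membrane-bound CREB factor, were lower (-1.59 and -1.30). The other higher members, SGK1 and TSC22D3, also stand in the glucocorticoid list. The keratins of luminal cells diverged, with KRT8 at 525 with vehicle and 1008 at 10 nM and its partner KRT18 at 313 and 207.

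Lists of growth arrest and cell death differed in how their members lay around vehicle. The p53 list stood 16 of 34 at least 2-fold above vehicle, 0 at least 2-fold below, and its median was 0.95. Of its members 33 lay above 0 and 1, CMBL (-0.37), below, but MDM2 (0.56) and CCNG1 (0.27) were within 2-fold. Among 31 cyclins, CDKs, inhibitors and related genes such as the E2F and CDC25 genes, 5 were higher and 1 lower. CDKN1B, the p27 inhibitor, had signals of 443, 1219 and 1987 with vehicle, 10 nM and 20 nM, CDKN2B, the p15 inhibitor, was at least 1.42-fold higher, and CCNG2, an atypical cyclin of arrested cells, had a log2 fold change of 1.85. WEE1, the kinase that holds CDK1 inactive, had 1.04, and CCND1, the G1 cyclin, had -0.57. With CDKN1A, 3 of the 5 higher members were CDK inhibitors, and the lower one was the S and G2 phase cyclin CCNA2 (-1.02). Other inhibitor genes, CDKN2A (-0.72) and CDKN2D (-0.27), lay below vehicle by less than 2-fold. The BCL2 family had 3 of 14 higher with a median of 0.36, and death receptors and caspases 4 of 17, where the median was 0.47 and, without background correction, 0.25. In the death receptor list 7 members lay below 0, among them the adaptor gene FADD (-0.71) and all 4 detected caspase genes, such as CASP6 (-0.72).

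The stress lists differed from each other. The integrated stress response list had 11 of 28 members higher, 0 lower, and the list median was 0.70. It was 0.56 with genes at their bound and 0.36 without background correction. The higher members included NUPR1 (1.75), the mTORC1 inhibitor DDIT4 (1.40), the ATF4 partner CEBPG (1.24) and the glutathione-degrading enzyme CHAC1 (at least 1.28-fold). ATF4 itself (0.37) and ASNS (0.24) lay within 2-fold of vehicle. Of the list, 6 members lay below 0, among them SLC7A5 (-0.77) and the cystine carrier SLC7A11, another target of ATF4 (-0.65). By contrast, 0 of 17 endoplasmic reticulum chaperones passed 2-fold, with a median of -0.02. In the heat shock list 1 of 24 did, the small heat shock gene HSPB8 (170.3, 414 and 576), and the abundant HSPA8 and HSPH1 had -0.85 and -0.92. All 8 subunits of the cytosolic chaperonin lay below 0, none by 2-fold, with a median of -0.45, or -0.20 in the deposited intensities. In the list of NRF2 and heme genes 2 of 25 were higher, HMOX1, heme oxygenase (177, 482 and 2520.2), and the aldo-keto reductase AKR1C3 (1.99).

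Autophagy and lysosome genes had 7 of 43 members at least 2-fold higher and 0 lower, 34 lay above 0, and the median was 0.32. GABARAPL1, an ATG8 family member, had signals of 482 with vehicle, 1669 at 10 nM and 2656 at 20 nM, and MAP1LC3B, the LC3 gene, had 276, 510.4 and 941. NEU1, the lysosomal sialidase, had 304, 805 and 1261. These genes stood in the order of the dose. RB1CC1, an initiation scaffold, and the protease gene CTSD had log2 fold changes of 1.59 and 1.25, while another lysosomal protease gene, CTSL, had 2435, 1394 and 928. Of 23 sterol genes 4 were higher and 1 lower: the cholesterol exporter ABCG1 (1.91), the SREBP retention genes INSIG1 (1.33) and INSIG2 (1.04) and the desaturase SC5D (1.23) against the dehydrogenase NSDHL (-1.10). Of 82 RAB, VPS and sorting nexin genes 6 were higher and 2 lower, led by RAB17, an epithelial trafficking GTPase (1057, 3348 and 3503).

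Ribosome biogenesis had the lowest median of the 68 lists. Of 93 detected members, 12 were at least 2-fold lower and 0 higher, 85 lay below 0, and the median was -0.62. The list also holds genes of RNA polymerase I, the exosome, RNase P and transfer RNA methylation. Its 12 lower members include WDR4 and METTL1, described above, and POP1, which was detected with vehicle only. RRP36, a processing factor of the small subunit, had signals of 1725 with vehicle, 764 at 10 nM and 348 at 20 nM, and RPP40, a subunit of RNase P, had 1684, 850.1 and 383. Both signals were lower at 10 nM than with vehicle and lower again at 20 nM. EXOSC2, an exosome subunit, and PPAN had log2 fold changes of -1.40 and -1.15, and RRN3, an initiation factor of RNA polymerase I, was an exception at 0.71. Mitochondrial ribosomal proteins had 0 of 71 past 2-fold, but 61 lay below 0, with a median of -0.34. MRPL17 had 3028, 1659 and 732, and MRPS26 had 1710.3, 938 and 415. Cytosolic ribosomal proteins lay closer to vehicle, with 1 of 61 lower and a median of -0.09, as did oxidative phosphorylation genes, with a median of 0.07 over 62 members.

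Translation factors had 3 of 58 members higher and 2 lower. EIF1, which guards start codon choice, had 5043 with vehicle, 11144 at 10 nM and 13710.0 at 20 nM, and its paralogue EIF1B had a log2 fold change of 1.09. EIF5A, the hypusinated elongation factor, had 1445, 2926 and 1461, with its high signal at 10 nM alone, and it has a near-identical copy, so its probe is uncertain. EIF1 and EIF5 act at the same step of start site recognition and lay on opposite sides. Of 27 transfer RNA synthetases and of 35 proteasome subunits, 0 passed 2-fold, with medians of -0.20 and -0.27.

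DNA replication genes had 8 of 50 members lower (12 of 93 in ribosome biogenesis) and 0 higher, 45 lay below 0, and the median was -0.53. MCM6, a subunit of the replicative helicase, had 2206 with vehicle, 1031 at 10 nM and 602 at 20 nM, and TIPIN, of the fork protection complex, POLA2, of the primase-polymerase, and the histone chaperone CHAF1B had log2 fold changes of -1.26, -1.23 and -1.06. TK1, thymidine kinase, was above vehicle by less than 2-fold (0.54), and the probes of the sliding clamp gene PCNA spanned -0.67 to 0.09. Mitotic genes had 4 of 61 lower and 1 higher, with the centromere genes CENPU (-1.15) and CENPV (-1.06) lower and CENPC at least 1.28-fold higher. DNA repair genes had 6 of 53 lower, including the Fanconi anaemia genes FANCL (-1.34) and FANCG (-1.08), the glycosylase OGG1 (-1.05) and the scaffold XRCC1 (-1.05). The only higher one, DDB2 (1.67), is also a p53 target.

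Chromatin, splicing and ubiquitin genes held members on both sides. Of 103 chromatin genes 6 were higher, 5 lower, and the list median was -0.08. The lower ones included 3 protein arginine methyltransferases, PRMT6, PRMT7 (-1.14) and PRMT5 (-1.06), with the histone demethylase KDM1A (-1.01) and the helicase SMARCAL1 (-1.08). The higher ones included the remodellers CHD9 (1.96) and CHD2 (1.77), the methyltransferase SETD2 (1.49) and the demethylase KDM6B (at least 1.81-fold). Of 100 splicing genes 5 were lower, among them SRSF7 (-1.11), SRSF3 (-1.03) and HNRNPA3 (-1.25), and RBM15, an adaptor of RNA methylation, was higher (1.57). DEAD-box and related helicases had 4 of 40 lower and 0 higher, DHX37 (-1.20), DHX33 (-1.13), DHX9 (-1.10) and DDX27 (-1.06). Of 151 ubiquitin ligase and related genes 9 were higher and 8 lower. KLHL24 (2.21), KLHL28 (2.15) and RNF19B (1.96) were on the higher side, and the probes of FBXO32, the atrogin-1 gene, spanned 0.63 to 2.29.

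Transcription factors of the FOX, SOX, HOX and ETS families had 8 of 33 members higher, 1 lower, and the list median was 0.56. The ETS genes ETV6 (2.17) and ELF1 (1.33) and the homeobox gene HOXC13 (1.23) were higher, and SOX8 was lower (-1.01). The much larger zinc finger family had 6 of 223 higher, 6 lower, and the list median was -0.17. Of 79 small RNA and host genes 3 were higher and 4 lower, including the 7SK RNA gene RN7SK (1.10) and the small nucleolar RNA gene SNORA6 (-1.19). Of 23 Mediator subunits, 43 glycolysis and citric acid cycle genes and 13 housekeeping genes, 0 passed 2-fold in either direction, with medians of 0.16, -0.13 and 0.12. Among the housekeeping genes, GAPDH had signals of 12015 with vehicle and 10258 at 10 nM, and ACTB 8779.8 and 13021.

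Epithelial differentiation genes stood 6 of 20 higher by value, 1 lower, and the list median was 0.36. Of the 20, 3 were detected on 1 array, and the median was 0.27 with genes at their bound. Beside the keratin gene KRT80 and the ETS factor ELF3, the higher members included JUP, the plakoglobin gene of cell junctions (1.34). The differentiation factors ZNF750 (at least 1.22-fold) and GRHL1 (at least 1.17-fold) were past 2-fold by value but not at their bound. Of 5 KLF genes 2 were higher, KLF4 (at least 4.18-fold) and KLF6 (1.41). Of 19 nuclear receptors and partners 2 were higher, the retinoic acid receptor gene RARA (1.15) and the coactivator NCOA7 (1.37). Tubulin and actin genes had 2 of 24 higher and 2 lower, with the muscle actin gene ACTA1 (2.35) highest. Among 22 ubiquitin-conjugating enzymes 0 were higher and 1 lower, and their median was -0.25.

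For several genes named above, another probe lay inside 2-fold. On the higher side its log2 fold change was 0.998 for KLHL28, 0.97 for NFAT5, 0.56 for JUP, 0.90 for HLA-DRA, 0.65 for EGFR and 0.88 for ZBTB16. On the lower side it was -0.80 for KRT18, -0.69 for SRSF3, -0.78 for PRMT5, -0.69 for CENPV and -0.82 for DHX9.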

How the data were processed

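Total RNA from 3 LNCaP samples was hybridised to Illumina bead arrays, 1 per treatment. The deposited table gives, per the file headers, non-normalized signal intensities of 47323 probes and a detection p-value per probe and array, made with BeadStudio 3.0 per the submitters' processing notes. A smaller deposited table holds 13753 of these probes with equal intensities, and 13752 of them are exactly those that were detected on 2 or more arrays (p-value below 0.05) and that differed from vehicle by 10% or more at 10 or 20 nM. Gene names were at hand for the smaller table only, where 10952 probes had 1 symbol, 2 had several, 2799 had none and 10947 identifiers were found in RefSeq.

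Background was corrected in limma 3.58.1 (R 4.3.3) by normexp, using the detection p-values, with fitted means of 112.9 (vehicle) and 113.6 (10 nM). Quantile normalization of the 3 arrays followed, after an offset of 16, and then log2. Tables were handled in Python 3.11.15 with pandas 2.3.3. Where a gene had several probes, the one with the highest mean stood for it. A bound for a gene detected on 1 array divides its bright value by the dim value or, if higher, by the lowest value of any detected probe on the dim array. Background correction and normalization were tested on simulated data with known folds at moderate signals. That test did not cover the dimmest or the brightest probes. Probes detected numbered 14664 (vehicle), 14735 (10 nM) and 14612 (20 nM).

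Named genes are the 25 farthest from vehicle in each direction among genes detected on both arrays, 8 in each direction detected on 1 array, and members of the lists, those farthest from vehicle first. List members from the middle of a list, and probes without a name, were chosen after their values were seen. The lower ranking passed over 1 provisional symbol. Members and lists were chosen with earlier results of these data known. Groups came from the treatment labels. Alternatives varied the background correction, offset, scaling, detection threshold, probe choice and bounds. No build is stated for the probes.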

Additional observations from a re-analysis of the deposited data

How the results depend on the processing

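Counts depended on the background. Without background correction, 246 probes were at least 2-fold higher and 57 lower, and 194 genes higher and 43 lower. With an offset of 50 these were 430 and 127 probes and 317 and 95 genes, and in the unnormalized deposited intensities 263 and 42 probes and 207 and 31 genes. Without background correction the list medians were 0.83 for immediate early genes, 0.36 for the integrated stress response, 0.60 for the clock and 0.997 for the sodium pump, and in the deposited intensities 0.85, 0.38, 0.62 and 1.01. Uncorrected background is part of both signals, which shortens folds by construction. Scaling by the median gave 544 and 237 genes, quantile normalization of the 2 arrays alone 522 and 258, the mean of probes 512 and 239, genes detected on both arrays 406 and 230, and bounds 461 and 241. Of 634 leading or list genes followed through the 9 alternatives, 239 were past 2-fold, and 0 of their values under the alternatives had the opposite sign. All alternatives reuse the same arrays and most only rescale them. A change of sign past 2-fold was therefore unlikely, and this is no replicate check of direction. Without background correction the medians were 0.50 for vasoactive and injury genes, 0.58 for NF-kappa-B genes, 0.25 for death receptors and 0.17 for amino acid carriers. Of the list medians under the alternatives, 588 moved by less than the standard deviation between probes, 0.31, and 23 by more. No paired analysis was possible because each treatment had 1 array. Dim signals near background limit the folds, and signals near the upper end of the range limit those of CDKN1A and GDF15.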
